A study of Homo sapiens with 9 samples.

Results

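The ERBB family holds 4 receptor tyrosine kinases, EGFR, ERBB2, ERBB3 and ERBB4, and its transcripts were followed in breast cancer cells given a microRNA mimic. Members were the genes that the array platform's probe-gene table pairs with these symbols. The table pairs 1 probeset each with EGFR, ERBB3 and ERBB4, so 3 of the 4 receptors were measured among 14884 genes with a named probeset; ERBB2 was not analysed here. The cells were ZR-75-1, an established human breast cancer line that expresses the estrogen receptor. Total RNA was taken 48 h after transfection and each of the 9 samples was hybridised to its own Affymetrix Human Gene 2.0 ST array. Of the 3 groups of 3 arrays, mock cells received the lipid Lipofectamine RNAiMAX without RNA, negative control cells received the lipid with 50 nM of a non-specific RNA, and mimic cells received it with 50 nM of mature miR-150-5p. All samples came from 1 cell line in culture. The labels do not say whether the 3 transfections of a group were separate experiments; the p-values then cover only how far these arrays spread, which may be technical.

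ERBB receptors sit in the plasma membrane and signal as pairs. Growth factors of the EGF type open the outer part of EGFR, ERBB3 or ERBB4 so that it can pair, while ERBB2 has no known ligand of its own and acts as the partner of the others. ERBB3 has a very weak kinase and signals mainly by recruiting PI3K, whereas EGFR is a strong activator of the RAS and ERK cascade. ERBB4 is activated by neuregulins and can be cut to release an inner fragment that enters the nucleus. In breast epithelium EGFR is usually more prominent in basal cells, while ERBB3 and ERBB4 are typical of luminal, estrogen receptor-positive cells.

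Values are log2 intensities as deposited, on which a difference of 1 is a doubling. Array medians ranged from 4.22 to 4.27. All 7 measured luminal markers of 8 listed, among them KRT18 (mean 12.1), EPCAM (10.4) and GATA3 (9.98), had means above the median gene mean of 5.44. Of markers of other cell types, 2 of 7 for fibroblasts, 3 of 6 for leukocytes and 4 of 6 for endothelium were measured, and all but CD68 had means below it. The 4 endothelial markers had positive log2 differences in the mimic (median 0.13, 0 called), from 0.02 for VWF to 0.53 for PECAM1. PECAM1, a dim probeset, read 2.43 to 2.81 in the controls and 2.84 to 3.58 in mimic. Array means over the 4 markers were 3.61 to 3.73 in mock, 3.64 to 3.76 in negative control and 3.83 to 3.97 in mimic. The part of these markers in the results was not tested. The table holds no detection call, so a dim gene cannot be separated from background. The median gene mean serves only to mark bright and dim probesets, since probesets differ in efficiency and their levels do not rank genes.

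ERBB4 stood higher in the mimic arrays than in every control array, but it did not pass the test across all genes. Its log2 intensity was 6.72, 6.73 and 6.69 in the mock arrays, 6.59, 6.77 and 6.46 in the negative control arrays, and 7.43, 6.87 and 6.90 in the mimic arrays. The lowest mimic array thus lay above the highest control array, and mimic replicate 1 lay apart from the other two. Mock averaged 6.71 ± 0.02 (SD, n = 3), the negative control 6.61 ± 0.15 and the mimic 7.07 ± 0.31.

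The log2 difference of ERBB4 between mimic and the mean of both control groups was 0.41 ± 0.12 (SE, 3 arrays against 6), a 1.33-fold higher level with a 95% interval from 1.09-fold to 1.604-fold. Its adjusted p was 0.184 in limma with Benjamini-Hochberg adjustment over 14884 genes, and its unadjusted p = 0.00846 ranked 682 among them. In this comparison 163 genes, or 1.1%, passed the threshold of 0.05. ERBB4 was 1 of 628 genes, or 4.22%, whose 3 mimic arrays all lay above all 6 control arrays. The ERBB4 difference was 0.23 ± 0.08 (adjusted p = 0.291) without mimic replicate 1, 0.50 without mimic replicate 2 and 0.49 without mimic replicate 3. In RNA from whole cultures, more transcript per cell and a larger share of expressing cells cannot be told apart. The cause of the spread among the mimic arrays was not tested.

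Taken against each control alone, ERBB4 gave 0.46 ± 0.14 (SE, n = 3 arrays per group) against the negative control, with an adjusted p = 0.223 in limma, and 0.35 ± 0.14 against mock, with an adjusted p = 0.425. Both comparisons use the same 3 mimic arrays. Without mimic replicate 1 these differences were 0.28 and 0.17. The negative control and mock arrays of ERBB4 overlapped, with a difference of -0.11 ± 0.14. The order of the group means was therefore negative control, mock and mimic, and no pair of them passed the test.

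EGFR, the receptor of EGF itself, lay on the low side in the mimic arrays. Its log2 intensity was 6.04, 5.89 and 5.87 in mock, 5.92, 5.66 and 6.06 in negative control, and 5.73, 5.74 and 5.76 in mimic. The 3 mimic arrays were nearly equal and lay below all 3 mock arrays, as was the case for 5.44% of all genes, but above negative control replicate 2. Means were 5.93 ± 0.10 (SD, n = 3), 5.88 ± 0.20 and 5.74 ± 0.015. The log2 difference of EGFR from both controls was -0.16 ± 0.09 (SE), with a 95% interval from -0.36 to 0.03 and an adjusted p = 0.453 in limma. It was -0.14 ± 0.10 against the negative control (adjusted p = 0.614) and -0.19 ± 0.10 against mock (adjusted p = 0.547). The former was -0.25 without negative control replicate 2 and -0.051 without negative control replicate 3. The mimic mean was the lowest of the 3 groups, and no neighbouring pair of means passed the test.

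ERBB3, the receptor that carries most of the PI3K-recruiting sites, had control arrays within a narrow range. Its log2 intensity was 7.77, 7.77 and 7.71 in mock, 7.76, 7.77 and 7.72 in negative control, and 7.85, 7.97 and 7.75 in mimic. Mimic replicates 1 and 2 lay above all 6 control arrays, while mimic replicate 3 lay among them. The table lists exactly the same ERBB3 value on mock replicates 1 and 2 and negative control replicate 2. Such repeats are common in it: 57.1% of genes have an equal value on at least 2 arrays, so the spread of a group can be understated. The log2 difference of ERBB3 from both controls was 0.11 ± 0.06 (SE), with a 95% interval from -0.03 to 0.25 and an adjusted p = 0.488 in limma. Without mimic replicate 2 it was 0.05. It was 0.11 ± 0.07 against the negative control (adjusted p = 0.583) and 0.11 ± 0.07 against mock (adjusted p = 0.636), while the 2 control groups differed by -0.00078.

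**Figure D1:**
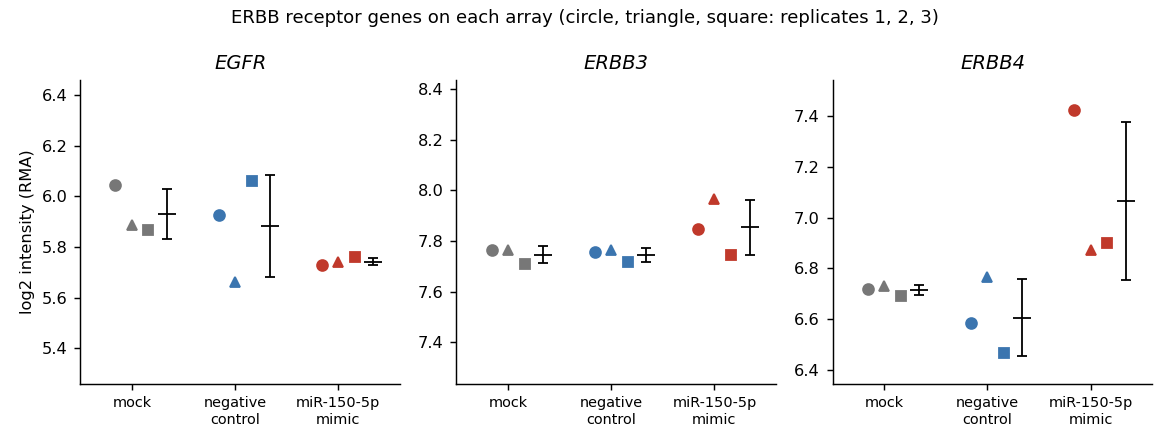
Log2 intensity of the 3 measured ERBB receptors on each of the 9 arrays, with 1 symbol shape per replicate number and the group mean ± SD (n = 3) as a black bar beside the points; the panels span the same range of 1.2 log2 units. The ERBB4 mimic arrays (6.87 to 7.43) lie above all control arrays (6.46 to 6.77), while EGFR and ERBB3 overlap with at least 1 control group.

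In all, 0 of the 3 measured receptors passed in any of the 4 comparisons made with limma. The share of all genes that passed was 0.551% for mimic against negative control, 0.302% for mimic against mock, 1.1% for mimic against both controls and 0% for negative control against mock. At an unadjusted p under 0.05, ERBB4 was the single receptor in the first 3 comparisons, where 12.6%, 10.7% and 13.5% of all genes had such a p, and 0 receptors had one between the 2 controls (4.18% of all genes). The 95% intervals of ERBB3 and EGFR reached a 1.19-fold higher ERBB3 and a 1.29-fold lower EGFR in mimic against both controls. These limits belong to this fit alone, and repeated values can make an interval too narrow. Whether the 3 receptors differ from each other in their response was not tested.

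Across the 9 arrays the log2 values of EGFR and ERBB4 had a Pearson correlation of -0.63, those of ERBB3 and ERBB4 of 0.52, and those of EGFR and ERBB3 of -0.48. The arrays share a cell line and a normalization and include the group differences above, so these are descriptions. Among 6866 protein-coding genes with means above the median, the 3 whose pattern was most like ERBB4 were PRRG2 (r = 0.97), NADK, an NAD kinase (0.97), and CAPN8, a calpain protease (0.97). The most opposite were NELL2, a secreted neuronal glycoprotein (-0.97), and CMAS, an enzyme that activates sialic acid (-0.97). With group means removed, these r were 0.95, 0.93, 0.96, -0.97 and -0.93; the genes were picked on the same arrays, of which mimic replicate 1 deviates most in ERBB4.

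ERBB3 was most like TERF2, a telomere-binding protein (r = 0.96), GLI4 (0.94) and FOXO3 (0.93), and most opposite to PRXL2C (-0.95) and CTC1, a telomere maintenance protein (-0.93). FOXO3 encodes a forkhead factor known to raise ERBB3 transcription when PI3K signalling is blocked. With group means removed its r with ERBB3 was 0.91. FOXO3 read 6.05 on mimic replicate 2, where ERBB3 was also highest, and 5.68 to 5.79 on the other arrays. A link between FOXO3 and ERBB3 was not tested. EGFR was most like MPND (r = 0.89), RASAL2, a GTPase-activating protein for RAS (0.87), and MSTO1 (0.87), and most opposite to C15orf40 (-0.91) and ZNF784 (-0.87). Each was picked as an extreme of 6866 genes over only 9 arrays.

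The ligands form 2 broad sets, the EGF-like growth factors that bind EGFR, some of them also ERBB4, and the neuregulins that bind ERBB3, ERBB4 or both. Of 11 listed, 9 were measured and 0 passed in limma against both controls; 3 had a positive and 6 a negative log2 difference, with a median of -0.03 beside 0.01 over all genes. At an unadjusted p under 0.05, 2 were lower, EGF and EREG, and 0 higher, beside 6.48% and 7.05% of all genes. Of the 9 ligands, 8 had means below the median gene mean, EGF being the exception.

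EGF, the ligand that names the family, had log2 intensities of 7.25, 7.27 and 7.35 in mock, 7.12, 7.26 and 7.20 in negative control, and 7.33, 6.85 and 6.73 in mimic. Mimic replicates 2 and 3 lay below all controls, while mimic replicate 1 lay among them. The log2 difference of EGF was -0.27 ± 0.12 (SE), with an adjusted p = 0.352 in limma. It was -0.45 without mimic replicate 1 (adjusted p = 0.0515) and -0.15 without mimic replicate 3 (adjusted p = 0.661). EREG, which encodes epiregulin, had 4.46, 4.65 and 4.46 in mock, 5.23, 4.80 and 4.28 in negative control, and 4.08, 4.02 and 4.46 in mimic. The negative control arrays of EREG spread most, and the log2 difference was -0.46 ± 0.18 (adjusted p = 0.319).

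Betacellulin (BTC) differed by -0.15 ± 0.08, or -0.073 without mimic replicate 2, and epigen (EPGN) by -0.13 ± 0.17, and HBEGF, the heparin-binding ligand, by 0.08 ± 0.07, or 0.051 without negative control replicate 2. Of the neuregulin genes, NRG1 differed by 0.0053 ± 0.10, NRG3 by -0.03 ± 0.11 and NRG4 by -0.0060 ± 0.05, with adjusted p from 0.934 to 0.988 in limma. NRG2 differed by 0.07 ± 0.05, with adjusted p = 0.596. Its mimic arrays (4.64 to 4.67) lay above all control arrays (4.57 to 4.59), at a low intensity and with the same value on all 3 negative control arrays. The mean of its 2 probesets gave a difference of 0.0031. No neuregulin gene passed the test, and NRG2 alone among the 9 ligands had groups that did not overlap. Of all genes, 4.22% lay above and 3.46% below every control array.

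**Figure D2:**
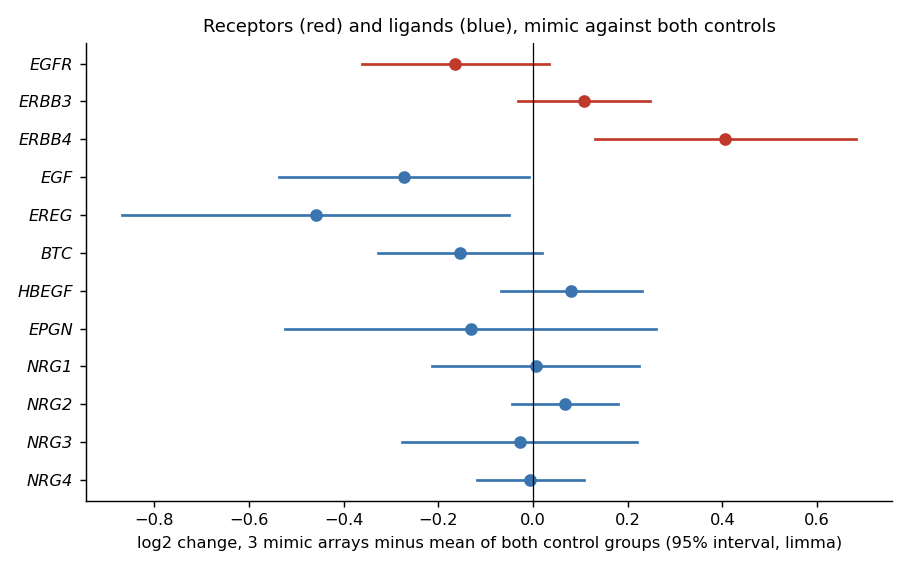
Log2 difference of mimic from the mean of both control groups with its 95% interval from limma, for the 3 receptors (red) and 9 ligands (blue) measured. The intervals of ERBB4 (0.13 to 0.68), EGF (-0.54 to -0.0086) and EREG (-0.87 to -0.05) do not include 0, though none passed the adjustment over all genes.

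Most ligands are made as membrane proteins that a protease must cut. Of 8 listed proteases and cofactors, all measured, 1 fell, 0 rose and 7 did not pass in limma against both controls, with a median log2 difference of 0.09. Of all genes, 0.591% fell and 0.504% rose in this comparison. This list and the others were chosen with earlier results of these data known, so such counts describe the lists and test nothing. The one that fell was ADAM19, a metalloprotease reported to release neuregulin. Its log2 intensity was 6.77, 6.84 and 6.98 in mock, 7.11, 6.89 and 7.25 in negative control, and 5.45, 5.56 and 5.61 in mimic. The groups were more than 1 log2 unit apart, and the fall was 1.43 ± 0.09 (SE), or 2.70-fold, with an adjusted p = 0.000454, the lowest p of all genes.

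The main releasing enzymes of the EGF-like ligands, ADAM17 and ADAM10, had positive differences that did not pass. ADAM17 differed by 0.24 ± 0.08, with mimic arrays at 7.87 to 8.12 above all controls (7.57 to 7.83) and an adjusted p = 0.232 in limma. ADAM10 differed by 0.23 ± 0.08 (adjusted p = 0.233). ADAM15, a relative, differed by -0.26 ± 0.06 (adjusted p = 0.105), with mimic arrays at 8.13 to 8.24 below all controls (8.40 to 8.59).

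Of the 7 listed partners and chaperones of the receptors, 3 were measured and 1 fell (0.591% of all genes), CD44, a hyaluronan receptor reported to bind ERBB proteins. Its arrays read 5.59, 5.64 and 5.62 in mock, 5.79, 5.69 and 5.59 in negative control, and 5.30, 5.23 and 5.32 in mimic, with no overlap. CD44 fell by 0.37 ± 0.06 (SE) against both controls, with an adjusted p = 0.0275 in limma. It passed against the negative control (adjusted p = 0.0446) but not against mock (adjusted p = 0.127). The call was lost when any 1 array other than negative control replicate 3 was left out (adjusted p from 0.0535 to 0.0999). ERBIN, which binds ERBB2, differed by 0.08 ± 0.10, and CDC37, the co-chaperone that loads kinases onto HSP90, by -0.03 ± 0.06.

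Inhibitors and trafficking proteins decide how long a receptor stays active. Of 29 listed, 17 were measured, 1 rose, 0 fell and 16 did not pass in limma against both controls, with a median of 0.04, where 0.504% of all genes rose and 0.591% fell. LRIG1, a membrane protein that promotes the breakdown of ERBB receptors, was the one that rose. Its log2 intensity was 8.67, 8.64 and 8.71 in mock, 8.90, 8.85 and 8.70 in negative control, and 9.14, 9.08 and 9.17 in mimic. The mimic arrays lay above all controls; negative control replicates 1 and 2 also lay above the mock arrays, and replicate 3 among them.

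The rise of LRIG1 was 0.38 ± 0.06 (SE), or 1.30-fold, against both controls, with an adjusted p = 0.0268 in limma. It was 0.46 ± 0.07 against mock (adjusted p = 0.0429) and 0.31 ± 0.07 against the negative control, which did not pass (adjusted p = 0.103). Against both controls the call was lost without mock replicate 1 or 2, negative control replicate 2 or 3, or any 1 mimic array (adjusted p from 0.0594 to 0.0773), with log2 differences from 0.36 to 0.41.

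SOCS5, an inhibitor reported to lower EGFR, differed by 0.40 ± 0.10 with an adjusted p = 0.105, and its mimic arrays (7.07 to 7.29) lay above all controls (6.58 to 7.02). SPRY2, a feedback inhibitor of RAS signalling, differed by -0.27 ± 0.08 (adjusted p = 0.186), with mimic arrays at 4.59 to 4.89 and controls at 4.90 to 5.09. Both are values without a call. ERRFI1, a direct inhibitor of the EGFR kinase, differed by -0.13 ± 0.11.

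Among adaptors and proximal enzymes 12 of 15 were measured and 0 passed in limma, with a median of -0.02. At an unadjusted p under 0.05, 0 were higher and 2 lower (7.05% and 6.48% of all genes). SHC1, the adaptor that links active receptors to RAS, had the lowest p. It read 8.37, 8.36 and 8.36 in mock, 8.48, 8.502 and 8.54 in negative control, and 8.12, 8.31 and 7.87 in mimic. All mimic arrays of SHC1 were below all controls, but they spread over 0.44 log2 units, and the difference was -0.34 ± 0.09 (adjusted p = 0.123), or -0.22 without mimic replicate 3. The docking proteins GAB2 and GAB1 differed by -0.14 ± 0.06 and -0.11 ± 0.07.

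The inner arms of the pathway showed 0 calls in limma. In the RAS and ERK cascade 6 of 11 genes were measured, 0 of them with an unadjusted p under 0.05 (13.5% of all genes), with a median of -0.0065; ARAF differed by -0.10 ± 0.06, HRAS by -0.17 ± 0.16 and KSR1, a scaffold, by 0.08 ± 0.08. With single arrays left out HRAS ranged from -0.40 (without mimic replicate 1) to -0.0016 (without mimic replicate 2), KSR1 from 0.012 (without mimic replicate 3) to 0.12 (without negative control replicate 3), and ARAF was -0.062 without mimic replicate 1. In the PI3K and AKT arm 6 of 17 were measured, each with its highest value of all arrays on mimic replicate 3. All 6 had a positive difference, with a median of 0.12 beside 0.01 over all genes. PDPK1, the kinase that activates AKT, had the lowest p there (0.18 ± 0.07, adjusted p = 0.326), before TSC2 (0.12 ± 0.06, or 0.064 without mimic replicate 3) and AKT2 (0.13 ± 0.07).

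Transcripts that ERK signalling is known to induce were also followed, though signalling itself was not measured. Of 16 listed, 15 were measured and 0 passed in limma; 6 differences were positive and 9 negative, with a median of -0.06. At an unadjusted p under 0.05, 1 was higher and 4 lower, beside 7.05% and 6.48% of all genes. JUNB had the lowest p, -0.30 ± 0.08 (adjusted p = 0.111), with mimic arrays at 7.09 to 7.27 and controls at 7.40 to 7.68. EGR1, an immediate-early factor, differed by -0.46 ± 0.16 (adjusted p = 0.243) and DUSP5, an ERK phosphatase, by -0.40 ± 0.15 (adjusted p = 0.296). Mimic arrays of DUSP5 overlapped with both control groups, those of EGR1 only with mock. EGR1 differed by -0.63 from the negative control, whose arrays all lay above mock, and by -0.29 from mock. Against both controls, without mimic replicate 1, the differences were -0.26 for EGR1 and -0.61 for DUSP5. Without mimic replicate 2 DUSP5 was -0.25. The mean of each gene's probesets gave -0.19 and -0.26, and array weights gave -0.28 for EGR1.

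**Figure D3:**
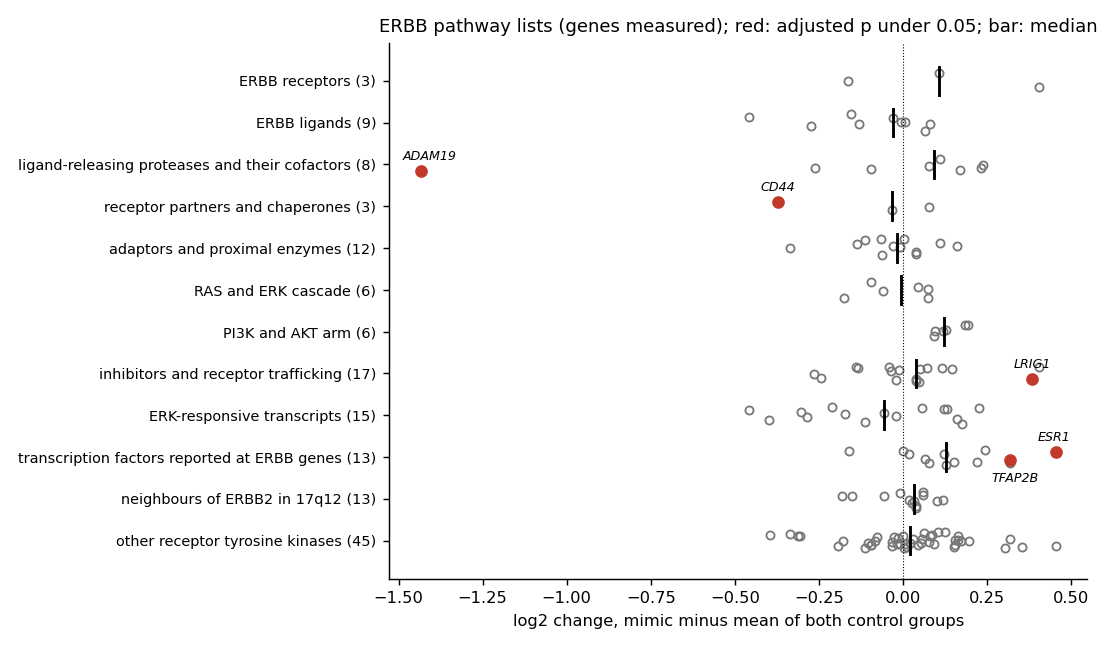
Log2 difference of mimic from the mean of both control groups for every measured gene of the 12 lists, with the number measured in parentheses, the list median as a black bar and genes with an adjusted p under 0.05 in red and named. The 3 receptors are open circles, and the named genes are ADAM19, CD44, LRIG1, ESR1 and TFAP2B.

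Of 16 transcription factors listed as reported at ERBB genes, 13 were measured, 2 rose, 0 fell and 11 did not pass in limma against both controls, with a median of 0.13. Of all genes, 0.504% rose and 0.591% fell. ESR1, the estrogen receptor alpha gene, read 8.52, 8.55 and 8.63 in mock, 8.498, 8.52 and 8.64 in negative control, and 9.04, 9.02 and 8.98 in mimic. It rose by 0.45 ± 0.06 (SE), or 1.37-fold, with an adjusted p = 0.0128, and lost the call without mimic replicate 1 (adjusted p = 0.0523) or 2 (adjusted p = 0.0658).

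TFAP2B, an AP-2 factor of the family that binds ERBB gene promoters, read 8.74, 8.77 and 8.74 in mock, 8.73, 8.72 and 8.70 in negative control, and 9.14, 9.0 and 9.0 in mimic. It rose by 0.32 ± 0.06 (SE) against both controls, with an adjusted p = 0.0365 in limma. Against a single control it did not pass (adjusted p = 0.0594 and 0.142), nor when any 1 array was left out (0.0656 to 0.0996), nor after quantile normalization (0.0864). TFAP2C, another AP-2 gene, did not pass, with mimic arrays at 9.63, 9.73 and 9.49 and controls at 9.49 to 9.64. TFAP2A, also listed, was not measured. EHF, an ETS factor of epithelia, differed by 0.22 ± 0.08 (adjusted p = 0.260).

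**Figure D4:**
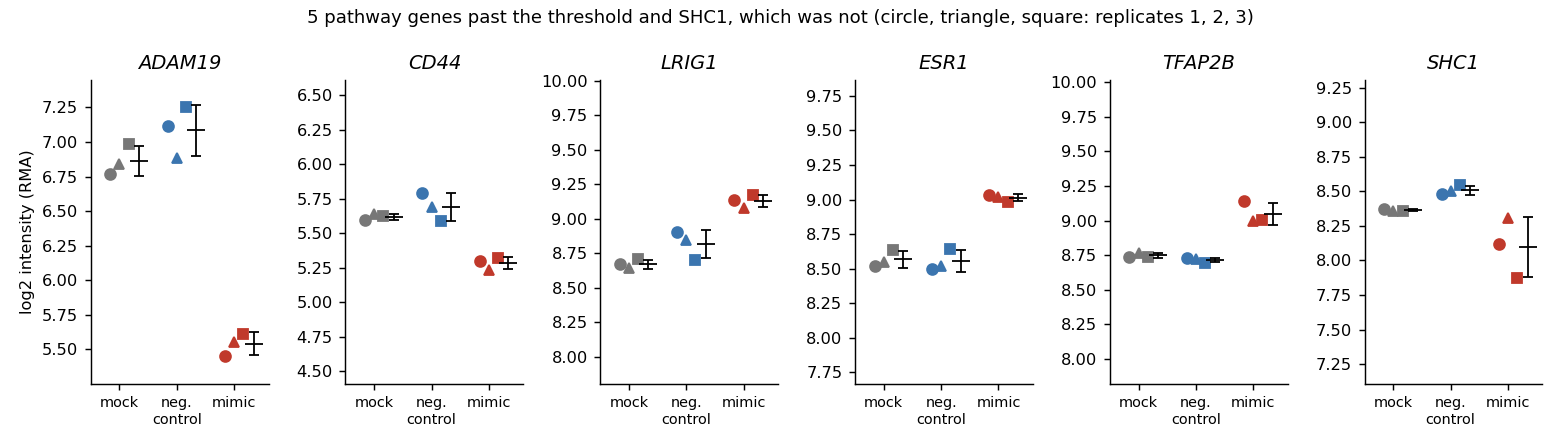
Log2 intensity on each of the 9 arrays of the 5 pathway genes that passed against both controls and of SHC1, which did not (adjusted p = 0.123); symbols mark replicates 1 to 3, black bars the group mean ± SD (n = 3), and all panels span 2.2 log2 units. ADAM19 mimic arrays (5.45 to 5.61) lie far below the controls (6.77 to 7.25), while the shifts of the others are under 0.5.

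The AP-2 gene TFAP2B and ESR1 were among the genes that rose, while the AP-2 gene TFAP2C did not pass. The 250 bases before the gene start are therefore shown for EGFR and ERBB4, the receptors with the largest negative and positive differences. They are from RefSeq (GRCh38.p14), each read 5′ to 3′ on the gene's strand. EGFR is on the plus strand, at chr7:55018767-55019016, and ERBB4 on the minus strand, at chr2:212538803-212539052. Capitals mark the AP-2 letters GCCNNNGGC and the SP1 letters GGGCGG on either strand.
EGFR: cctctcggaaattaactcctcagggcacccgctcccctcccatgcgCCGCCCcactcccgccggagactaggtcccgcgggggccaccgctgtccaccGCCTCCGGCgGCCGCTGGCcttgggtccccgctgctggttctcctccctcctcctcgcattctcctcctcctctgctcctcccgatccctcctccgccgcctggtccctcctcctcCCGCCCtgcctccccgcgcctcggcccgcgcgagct
ERBB4: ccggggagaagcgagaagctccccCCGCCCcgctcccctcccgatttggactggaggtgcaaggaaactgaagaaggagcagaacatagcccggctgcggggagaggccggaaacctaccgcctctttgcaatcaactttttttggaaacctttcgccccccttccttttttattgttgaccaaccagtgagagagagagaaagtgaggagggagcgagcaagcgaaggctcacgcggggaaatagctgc

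The EGFR stretch holds 2 AP-2 matches next to each other, which do not overlap, and 2 SP1 matches, and has a GC content of 73.6%. The ERBB4 stretch holds 0 AP-2 matches and 1 SP1 match, with a GC content of 57.2%, beside a median of 58.0% over all 35116 promoter stretches of this length. The AP-2 letters occur at least once in 19.8% and at least 2 times in 4.04% of those stretches, and the SP1 letters in 42.6% and 24.3%. These shares are over all stretches and were not matched to the GC content of EGFR. Neither receptor's stretch holds AGGTCA, the repeat unit of estrogen response elements (12.1% of all), or the forkhead letters GTAAACA (2.98%), searched on both strands. These are matches of letters in one short window and describe the sequences only.

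The genes beside ERBB2 in 17q12, which are often amplified with it in breast cancer, were measured for 13 of 14 listed. In limma 0 passed against both controls, with a median of 0.03. At an unadjusted p under 0.05, 0 were higher and 1 lower, against 7.05% and 6.48% of all genes. MIEN1, the nearest in p, differed by -0.15 ± 0.06 (adjusted p = 0.295), PGAP3 by -0.18 ± 0.09 (-0.10 without mimic replicate 1) and CDK12, a transcriptional kinase, by 0.10 ± 0.07. They do not stand in for ERBB2, with which the platform table pairs no probeset.

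Other receptor tyrosine kinases, which share the downstream arms, were listed for comparison. Of 54 listed, 45 were measured and 0 passed in limma against both controls, with a median of 0.02; 4 were higher and 5 lower at an unadjusted p under 0.05, as were 7.05% and 6.48% of all genes. FGFR4, a fibroblast growth factor receptor, had the lowest p, with 0.45 ± 0.10 (adjusted p = 0.0638) and mimic arrays at 8.78 to 8.88 above all controls (8.19 to 8.64). IGF1R, the receptor of insulin-like growth factors, differed by 0.32 ± 0.07 (adjusted p = 0.0940) and ROR2, a WNT5A receptor, by -0.39 ± 0.09 (adjusted p = 0.0938). The mimic arrays of IGF1R (8.85 to 8.90) and ROR2 (5.21 to 5.56) also lay outside their controls (8.37 to 8.67 and 5.69 to 5.997). In all, 3 of these 45 kinases lay above and 3 below every control array, beside 4.22% and 3.46% of all genes.

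The receptor differences kept their sign under every alternative of the comparison with both controls, but none passed in any. For a gene with 1 probeset, the replicate block, dim-gene filter, probeset and eBayes settings cannot move the difference. In those settings only its p could change. ERBB4 ranged from 0.23 to 0.50 with adjusted p from 0.124 to 0.407 in limma, EGFR from -0.22 to -0.12 with adjusted p from 0.262 to 0.635, and ERBB3 from 0.05 to 0.16 with adjusted p from 0.234 to 0.778. For EGFR the value farthest from 0 came without negative control replicate 2, the lowest control array.

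**Figure D5:**
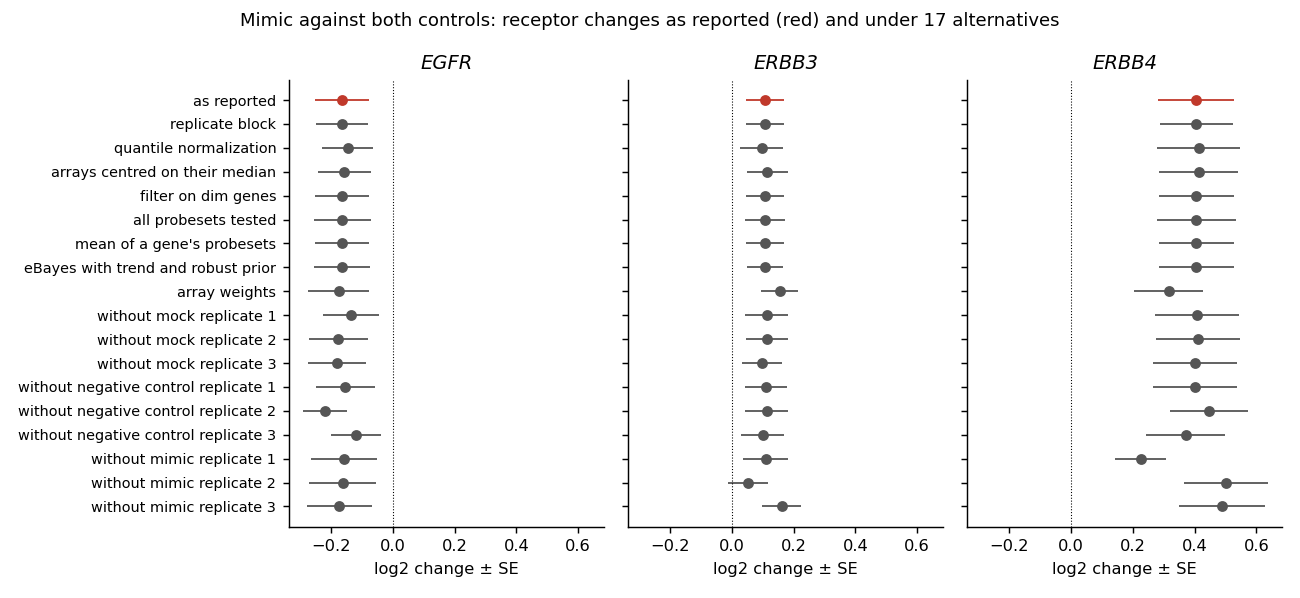
Log2 difference ± SE of the 3 receptors, mimic against the mean of both controls, as reported (red) and under each of 17 alternative settings named on the vertical axis. ERBB4 stays at or above 0.23, EGFR at or below -0.12 and ERBB3 between 0.05 and 0.16. The block, filter, probeset and eBayes settings repeat the reported difference and change only its SE.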

How the data were processed

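Gene expression was measured on 9 arrays of ZR-75-1 cells. The deposited values are log2 intensities per probeset, made by the authors with RMA, per the submitters' processing notes; its version and the genome build: not given in the sources used here. The table holds 53617 probesets; the platform table names 16098 with 1 gene symbol each, and all matched RefSeq (GRCh38.p14), used for names. A gene with more than 1 probeset was represented by its brightest on average.

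These values went unchanged into lmFit and eBayes of limma 3.58.1 (R 4.3.3), with all 9 arrays and a mean for each group. P-values are two-sided and Benjamini-Hochberg adjusted over 14884 genes per comparison, with a threshold of 0.05; SE and 95% intervals are limma's. An exact permutation test of 3 against 3 arrays cannot go below 0.1. The fit was tested on simulated data. With no scanner counts, the number of arrays limits the precision.

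The members and the lists (ligands, proteases, partners, adaptors, RAS and ERK, PI3K and AKT, inhibitors, ERK-responsive transcripts, transcription factors, 17q12, other kinases, cell markers) were chosen with earlier results of these data known. Named were the receptors, all measured ligands, list members past the threshold with the mimic, the 3 lowest p per list, and the extremes of correlation. ADAM10, ERRFI1, TFAP2C, TFAP2A and the markers KRT18, EPCAM, GATA3, CD68, VWF and PECAM1 were added after the values were seen. Alternatives covered spread, replicate block, scaling, dim genes, probesets, eBayes settings, array weights and each array left out.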

Additional observations from a re-analysis of the deposited data

How the results depend on the processing

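The sign and the lack of a call held for EGFR, ERBB3 and ERBB4 in mimic against negative control, mock and both controls under all alternatives run. Part of these settings could not move the sign. The block, filter, probeset and eBayes settings leave the difference of a gene with 1 probeset unchanged. Against a single control, so do the fit on the 2 groups and leaving out an array of the third group. Between the 2 controls signs were not stable when 1 array was left out: EGFR ranged from -0.14 to 0.060 and ERBB3 from -0.020 to 0.014. Against both controls the same held for NRG1 (-0.071 to 0.061), EPGN (-0.29 to 0.063), NRG3 (-0.084 to 0.057), ERBIN (-0.011 to 0.17) and CDC37 (-0.051 to 0.00014), and NRG4 was 0.0015 with arrays centred on their median. Numbers of genes called moved more. Mimic against negative control (82) gave 8 in a fit on the 2 groups compared, 16 with the replicate number as a block, 194 after a filter on dim genes, 6 with all probesets tested, 169 with trend and robust prior, 268 with array weights, and 7 to 121 with 1 array left out. Mimic against mock (45) gave 1 in a fit on the 2 groups, 3 with the block, 3 with all probesets, and 1 to 10 with 1 array left out. Mimic against both controls (163) gave 95 with the block, 247 after the filter, 22 with all probesets, and 31 to 102 with 1 array left out. Negative control against mock gave 0 throughout. The cause was not tested beyond the change in genes or arrays that each setting makes. FGFR4 passed after the filter (adjusted p = 0.0392), with trend and robust prior (0.0386) and with array weights (0.0385); IGF1R passed without mock replicate 3 (0.0394). With all probesets tested, LRIG1 (0.115), CD44 (0.117), TFAP2B (0.131) and ESR1 (0.0674) did not pass. Replicate numbers were not treated as pairs, since the labels leave their meaning open and deviations of same-numbered arrays correlated between -0.06 and 0.13; still, 6 of 9 arrays were closest to their own number, a hint from the data. With the replicate number as a block, LRIG1 (0.0612), CD44 (0.0618) and TFAP2B (0.0731) lost the call against both controls, and ERBB4 had an adjusted p = 0.191.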
